A study of Mus musculus with 7 samples.

Results

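Interferon-stimulated genes were examined in RNA from prefrontal cortex, taken at 8 weeks of age from male mice of strain C57BL/6J, in 3 wild-type (WT) libraries and 4 libraries of the genotype that the labels write as hDISC1AA/+. The set was fixed as 42 gene symbols, and all 42 had a row in the table of 43626 gene identifiers. DISC1 is a scaffold protein of neurons; the study's title concerns its phosphorylation at a pair of serines, and the labels name no treatment and no other allele in either group. No infection or interferon exposure is named either. In the text, the unnumbered hDISC1AA/+ library is the column whose number stands in no sample title; the other 6 columns carry a title, and replicate numbers only name the libraries. The labels do not say that each library came from a separate mouse, so p-values measure the spread between libraries, which may in part be technical.

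Type I interferons are secreted by cells that detect foreign or misplaced nucleic acid. They bind the receptor IFNAR1 and IFNAR2, and the kinases JAK1 and TYK2 then phosphorylate STAT proteins, STAT2 among them, which join IRF9 and bind a DNA element called the interferon-stimulated response element (ISRE). The genes so induced encode sensors, antiviral enzymes, membrane proteins that block viral entry or release, and brakes on the pathway. In the brain, microglia and endothelial cells are among the cells known to respond. In bulk tissue fewer cells of a type and less RNA per cell cannot be told apart.

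The ISRE is shown first because it is the sequence through which many of these genes are co-induced. RefSeq promoter windows (GRCm38.p6, 250 bases before to 50 bases after each annotated start) were at hand for 32 of the 42 members. The ISRE core was searched as 2 copies of GAAA with any 2 bases between them, on both strands, with overlapping matches counted. It was found for 17 of the 32 members (53.1%), against 3.99% of all 27025 genes with such a window. Stretches that lie upstream of the start and outside annotated exons are printed for 7 members, 5′ to 3′ on the strand of the gene, with the matched bases in capitals. TTTC, any 2 bases and TTTC are the same core read on the other strand.
Isg15: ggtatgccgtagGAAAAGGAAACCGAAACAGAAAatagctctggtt
Ifit1: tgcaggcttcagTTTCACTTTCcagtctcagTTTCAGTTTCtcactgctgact
Ifit3: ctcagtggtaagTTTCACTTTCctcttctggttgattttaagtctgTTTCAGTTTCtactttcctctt
Rsad2: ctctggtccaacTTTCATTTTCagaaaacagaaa
Bst2: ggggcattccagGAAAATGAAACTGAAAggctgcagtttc
Oas1a: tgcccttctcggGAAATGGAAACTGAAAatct
Trim30a: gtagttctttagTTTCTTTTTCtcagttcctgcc

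These stretches lie at chr4:156200863-156200908 (minus strand) for Isg15, chr19:34640773-34640825 (plus) for Ifit1 and chr19:34583361-34583428 (plus) for Ifit3. They lie at chr12:26456551-26456584 (minus) for Rsad2, chr8:71537575-71537614 (minus) for Bst2, chr5:120907526-120907557 (minus) for Oas1a and chr7:104465208-104465241 (minus) for Trim30a. In Isg15 3 overlapping cores ran together from 78 bases before the start. Ifit1 and Ifit3, neighbours on chromosome 19, each held 2 separate cores. A second motif, the GAS core of genes that answer to interferon gamma (TTCNNNGAA, a palindrome), was found for 7 of the 32 members and for 9.55% of all genes with a window. A match is a description of the letters only, and a window without one says nothing of the factor.

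**Figure D1:**
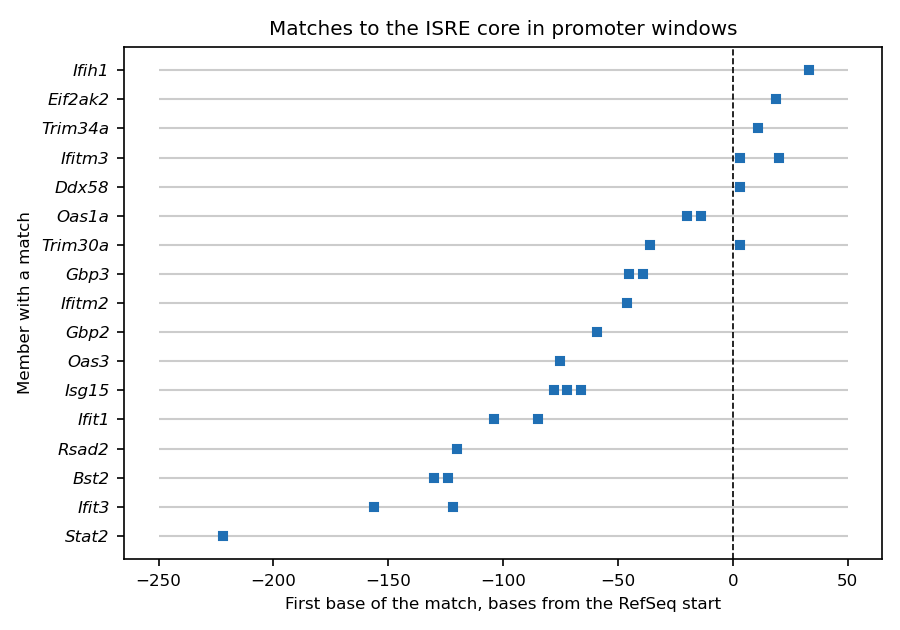
First base of each match to the ISRE core (squares, bases from the RefSeq start at the dashed line) in the promoter windows of the 17 members with a match; grey lines span the 250 bases before to 50 bases after the start. In 12 members a match lies before the start, the farthest at 222 bases before it in Stat2.

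Facts of the whole table bear on what follows. Depth ran from 33512557 to 63845254 gene-assigned reads, the most in WT replicate 1. The deposited values are reads divided by 1 size factor per library and are called normalized counts here. Markers of neurons were abundant in every library, as the tissue label says: the summed normalized counts of 12 cortical neuron genes were 351237 to 409190. A gene was tested if 3 or more libraries reached 10 normalized counts. Of the 17670 such genes, 0 (0.0%) had an adjusted p under 0.05 between the genotypes (limma, Benjamini-Hochberg), and 431 (2.44%) had an unadjusted p under 0.05. On the recovered reads edgeR and DESeq2 also called 0 genes, with 458 and 510 at an unadjusted p under 0.05.

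The members were weakly expressed. Of the 42, 41 passed the filter, and Oas3 did not, with 1.03 to 7.40 normalized counts (1 to 7 reads) in any library. Per kilobase of exon, the median of the 41 was 39.6 normalized counts, against 139.9 for all 17670 tested genes, and 34 of the 41 lay below that value. On this scale Ifi27, a small membrane protein gene, was the highest (405 per kilobase), followed by the antiviral membrane protein genes Ifitm3 (321) and Ifitm2 (315), by Ifit3 (217) and by Lgals3bp (199). Oas3 (0.543 per kilobase), the sensor gene Zbp1 (2.74) and Oasl1 (3.17) were at the bottom. Together the 42 members took 0.015% to 0.029% of the reads of a library.

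Between the genotypes, 35 of the 41 tested members had a higher mean in hDISC1AA/+ and 6 a lower one, and none passed the test (limma adjusted p of 0.974 or more for each). Among all tested genes 47.8% had a higher mean in hDISC1AA/+. The median log2 fold change of the members, as hDISC1AA/+ minus WT on log2(normalized count + 1), was 0.35, against -0.01 for all tested genes. This scale understates the change of genes with low counts. For 4 members every hDISC1AA/+ library lay above every WT library, against 2.2% of all tested genes, and for 0 did every one lie below (2.84%). An unadjusted limma p under 0.05 was reached by 4 members, all higher in hDISC1AA/+, against 1.14% of all tested genes in that direction, and by 0 that were lower (1.3%). For 19 of the 41 the 95% confidence interval lay within 2-fold in either direction.

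The extreme values of the set gathered in 2 of the 7 libraries. WT replicate 1 held the lowest value of 31 of the 41 members (24.8% of all tested genes had their lowest value there). The unnumbered hDISC1AA/+ library held the highest value of 28 members (14.6% of all tested genes). Both were true of 24 members, and of 7.34% of all tested genes. The unnumbered library lay above the mean of the other 6 for all 41 members (51.7% of all tested genes), with a mean log2 difference of 0.66, and WT replicate 1 lay below it for 38 (47.5%) and above it for 3 (52.5%), with a mean of -0.73. The remaining 5 libraries, 2 of WT and 3 of hDISC1AA/+, lay between -0.11 and 0.17 on the same measure, in an order that did not separate the genotypes. For 5 members the unnumbered library also stood apart above the other 3 hDISC1AA/+ libraries, by Dixon's comparison of the gap with the range, against 0.656% of all tested genes; for 6 some hDISC1AA/+ library did so in either direction, against 7.98%.

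These libraries are the set's own lowest and highest, so leaving them out had to lower the difference; the values are given for their size and not as a test. Leaving out WT replicate 1 lowered the median log2 fold change of the members to 0.12, with 28 of 41 higher (48.3% of all tested genes). Without the unnumbered hDISC1AA/+ library it was 0.19, with 34 of 40 higher (48.1%). Without both, 19 of 40 were higher and 21 lower (48.2% of all tested genes were higher), and the median was -0.03. That share and that median lay near those of all tested genes, with a median of -0.01. Of the 35 members with a higher mean, 18 stayed higher without both and 17 had a lower mean, from -0.00 for Lgals3bp to -0.37 for Ifi44. Among the 17 were Usp18 (-0.31), Rsad2 (-0.28), Irf9 (-0.22), Mx2 (-0.21), Parp14 (-0.17), Trim25 (-0.10), Xaf1 (-0.09), Gbp3 (-0.09), Ifitm1 (-0.07) and Ddx58 (-0.05). The values of Ube2l6 (0.23), Dhx58 (0.22), Ifitm2 (0.18), Ifih1 (0.13), Bst2 (0.12), Ifi35 (0.11), Rtp4 (0.09), Dtx3l (0.08) and Parp9 (0.05) stayed above 0 but were smaller. Without WT replicate 1 alone, 8 of the 35 had a lower mean. An unadjusted limma p under 0.05 was reached by 1 member without WT replicate 1 (1.57% of all tested genes), 2 without the unnumbered library (1.25%) and 1 without both (1.13%). It was reached by 3 without WT replicate 1 and hDISC1AA/+ replicate 1 (3.34%), a setting in which 35 of 41 were higher (50% of all tested genes), with a median of 0.16. In the 5 libraries left without WT replicate 1 and the unnumbered one, the IFIT family had 0 of 3 members higher and the ISG15 group 1 of 4, while 3 of the 4 transcription factor genes stayed higher.

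**Figure D2:**
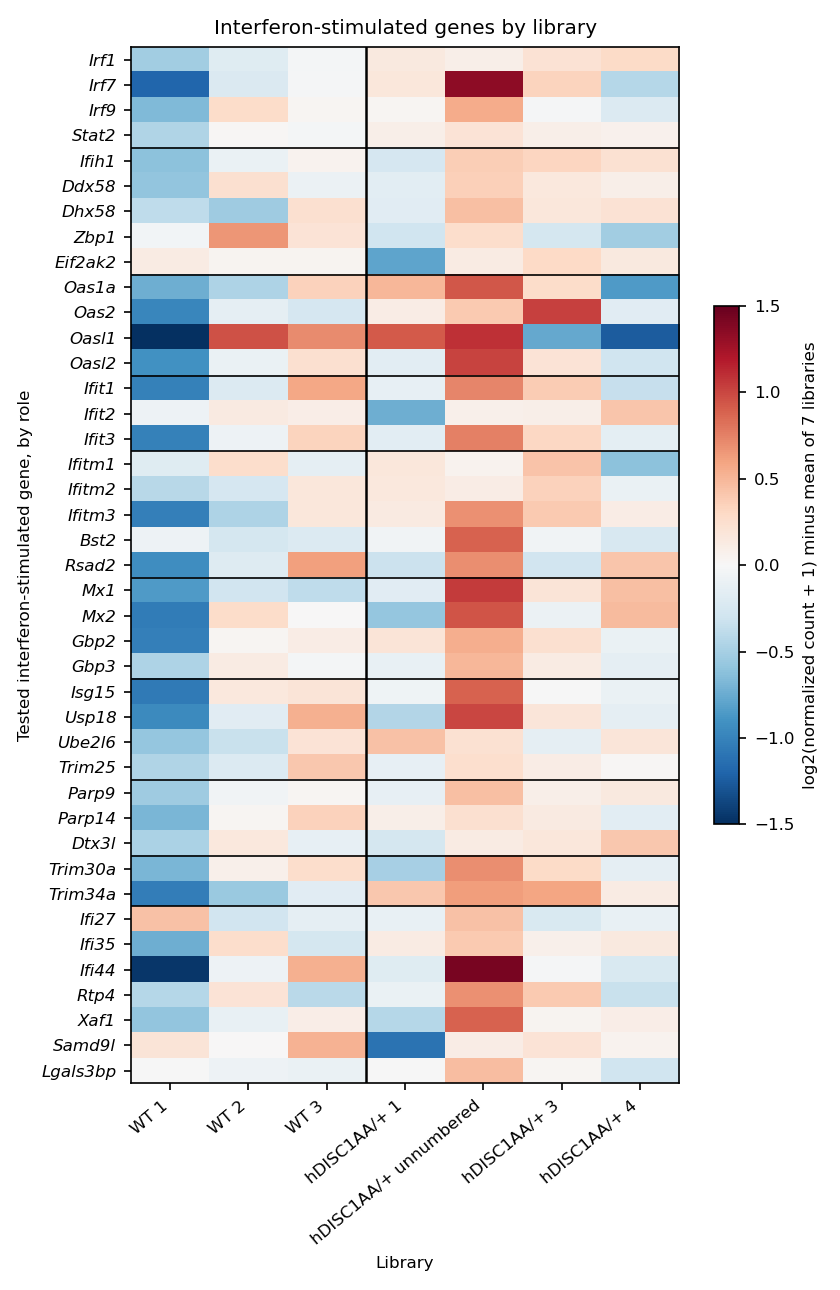
Each row is 1 of the 41 tested members, ordered by role with lines between roles; each column is a library, with WT left of the thick line. Colour gives log2(normalized count + 1) minus the mean of the 7 libraries for that gene, with the colour scale ending at 1.5 in either direction. WT 1 is blue in most rows and the unnumbered hDISC1AA/+ library red in most rows, while the other 5 columns are mixed.

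The 4 transcription factor genes of the pathway all had a higher mean in hDISC1AA/+, and none passed the test. Irf1 (ENSMUSG00000018899, GRCm38 chromosome 11, 53770014 to 53778374, plus strand) encodes a factor that interferons induce. Its normalized counts were 151, 192 and 213 in WT replicates 1 to 3, against 240.1, 252 and 265 in the numbered hDISC1AA/+ libraries and 230.4 in the unnumbered one. All 4 hDISC1AA/+ libraries lay above all 3 WT libraries, with means of 185 ± 31.1 (SD, n = 3) and 247 ± 15.2 (SD, n = 4). In log2 terms the difference was 0.42 (limma 95% CI 0.06 to 0.79, adjusted p = 0.974), and 0.32 without both WT replicate 1 and the unnumbered library. With 35 possible divisions of the libraries, an exact permutation test (two-sided) gave p = 0.0286, the smallest it can give.

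Stat2 (ENSMUSG00000040033, chromosome 10, 128270559 to 128292849, plus strand) encodes the STAT of the ISRE-binding complex. It had 699.6, 969 and 939 normalized counts in WT, against 1021, 1016 and 1004 in the numbered hDISC1AA/+ libraries and 1104 in the unnumbered one. The groups did not overlap, but WT replicates 2 and 3 lay close beneath hDISC1AA/+ replicates 1, 3 and 4. Stat2 differed by 0.27 on the log2 scale (limma 95% CI -0.03 to 0.56, adjusted p = 0.974; exact permutation p = 0.0286), and 0.09 without WT replicate 1 and the unnumbered library.

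Irf9, the DNA-binding partner of the complex, and Irf7, the factor that amplifies interferon production, overlapped between the groups. Irf9 averaged 437 ± 136 normalized counts across WT and 496 ± 120.5 across hDISC1AA/+ libraries, with a log2 fold change of 0.20 that was -0.07 without WT replicate 1 and 0.05 without the unnumbered library. Irf7 is given per library because of its spread, a choice made after its values were seen: 32.7, 65.5 and 75.2 in WT, and 85.7, 96.4 and 56.6 in hDISC1AA/+ replicates 1, 3 and 4. The unnumbered library had 195, 2.84 times the mean of the other 6, while WT replicate 1 reached 0.342 times that of its others. Without both the log2 fold change of Irf7 was 0.14, against 0.83 with all libraries. Irf7 overlaps Phrf1 on the opposite strand and Irf9 overlaps Rnf31 on its own strand; no strand setting is given in the sources used here, so a share of these reads may belong to the neighbours.

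**Figure D3:**
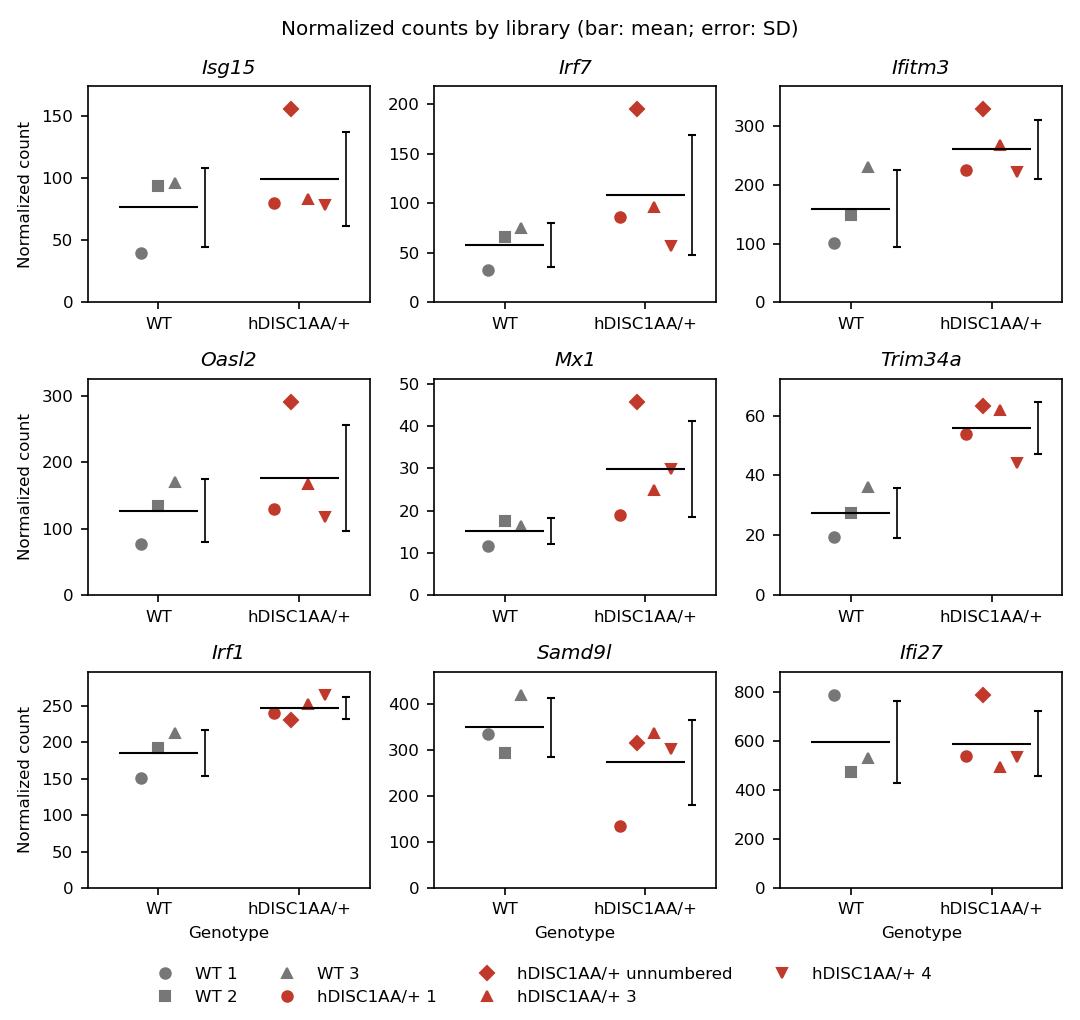
Normalized counts of 9 members (vertical axes, from 0) in WT (grey) and hDISC1AA/+ (red), 1 symbol per library, with the mean as a bar and the SD as an error bar (n = 3 and n = 4). The red diamond, the unnumbered library, is the highest symbol for Isg15, Irf7, Ifitm3, Oasl2, Mx1 and Trim34a; Samd9l is lowest in hDISC1AA/+ 1, and for Ifi27 WT 1 and the unnumbered library are both near 790.

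Of the 5 sensors of nucleic acid, 3 had a higher and 2 a lower mean in hDISC1AA/+, and none passed. Ifih1 encodes MDA5, which binds long double-stranded RNA (chromosome 2, 62595798 to 62646255, minus strand). It had 122, 175 and 194 normalized counts in WT, then 158, 242, 235 and 220.2 in hDISC1AA/+ replicate 1, the unnumbered library and replicates 3 and 4. Only hDISC1AA/+ replicate 1 lay within the WT range (log2 fold change 0.39, 95% CI -0.11 to 0.89). Ddx58, which encodes RIG-I, the sensor of uncapped RNA ends, had 201 ± 56.4 and 236 ± 34.8 (log2 fold change 0.26).

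Dhx58 encodes LGP2, a relative of both that modulates their signalling. It had 32.7, 29.5 and 51.2 normalized counts in WT, then 38.1, 59.2, 48.7 and 50.4 in hDISC1AA/+ replicate 1, the unnumbered library and replicates 3 and 4 (log2 fold change 0.39). The WT range covered 3 of the 4 hDISC1AA/+ values. Zbp1, a sensor of left-handed nucleic acid, rested on 6 to 14 reads per library (log2 fold change -0.48, 95% CI -1.34 to 0.39).

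Eif2ak2 encodes the kinase PKR, which halts translation on double-stranded RNA, and was the sensor with the highest level per length (48.9 per kilobase). It had 267, 252 and 252 normalized counts in WT, and 267, 301 and 269.5 in the unnumbered hDISC1AA/+ library and replicates 3 and 4. hDISC1AA/+ replicate 1 stood alone at 141, 0.525 times the mean of the other 6. The log2 fold change was -0.13 with it and 0.12 without it. The sign for PKR thus depended on 1 library, and that library was not one of the extremes of the set as a whole.

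The OAS enzymes make the 2′-5′ oligoadenylates that activate RNase L, and the Oasl proteins are relatives of them. Of the 4 tested family members 3 had a higher mean in hDISC1AA/+. Oas2 had 15.4, 28.4 and 26.2 normalized counts in WT, then 33.8, 41.5, 65.0 and 27.8 in hDISC1AA/+ replicate 1, the unnumbered library and replicates 3 and 4. Of these only replicate 4 fell within the WT range (log2 fold change 0.80, 95% CI -0.02 to 1.61; limma adjusted p = 0.974), and the highest was replicate 3. The log2 fold change was 0.52 without WT replicate 1 and the unnumbered library.

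Oasl2 (chromosome 5, 114896936 to 114912234, plus strand) had 76.4, 134 and 170.0 in WT, and 129, 167 and 117 in hDISC1AA/+ replicates 1, 3 and 4. The unnumbered library had 291 normalized counts, 2.20 times the mean of the other 6. The log2 fold change of 0.45 became -0.15 without that library and WT replicate 1. The closely related genes of the Oas1 cluster can share reads, and Oas1a (13.5 to 29.4 in WT, 12.3 to 44.6 in hDISC1AA/+) is uncertain on that account. Oasl1 had 2 to 14 reads per library and a log2 fold change of -0.00 (95% CI -1.87 to 1.87).

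Of the IFIT proteins, IFIT1 binds viral RNA that lacks the host's cap methylation. The genes of the IFIT family lie close together on chromosome 19. Of the 3 members, 2 followed the extremes and Ifit2 did not. Ifit3 (34583531 to 34588731, plus strand) had 176, 337 and 450.1 normalized counts in WT, then 318, 601, 443 and 321 in hDISC1AA/+ replicate 1, the unnumbered library and replicates 3 and 4. Ifit1 (34640871 to 34650009, plus strand) had 59.0, 105 and 181 in WT and 111, 200.3, 157 and 94.6 in the same order. For both, WT replicate 1 was lowest and the unnumbered library highest, with WT replicate 3 next, and the other values of the groups overlapped.

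The log2 fold changes of Ifit3 and Ifit1 were 0.44 (SE 0.34) and 0.37 (SE 0.39). They were -0.13 and -0.22 without WT replicate 1 and the unnumbered library. Ifit2 had 461 normalized counts in WT replicate 1 and 516 in the unnumbered library, within the range of the others; its lowest value was 294 in hDISC1AA/+ replicate 1 and its highest 649 in replicate 4 (log2 fold change -0.09). Ifit3 has a near copy, Ifit3b, with 99.5 to 223 normalized counts in WT, then 146 to 287 in hDISC1AA/+, and the counting could have divided reads between them.

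Of the membrane restriction factors all 5 had a higher mean in hDISC1AA/+, and none passed. The IFITM proteins sit in endosomal membranes and hinder viral fusion, and their genes form a cluster on chromosome 7. Ifitm3 (ENSMUSG00000025492, 141009586 to 141010770, minus strand) had 100.1, 148 and 229.9 normalized counts in WT, then 225, 329, 269 and 221 in hDISC1AA/+ replicate 1, the unnumbered library and replicates 3 and 4. WT replicate 3 lay among the hDISC1AA/+ values and the other 2 WT libraries below them. This is a log2 fold change of 0.77 (limma 95% CI 0.14 to 1.40, adjusted p = 0.974; exact permutation p = 0.0857), and 0.36 without WT replicate 1 and the unnumbered library.

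Ifitm2 had 152, 170.2 and 229 in WT and 226, 219, 258 and 190.3 in the same order of hDISC1AA/+ libraries (log2 fold change 0.29, 95% CI -0.13 to 0.72), with WT replicate 3 again inside the hDISC1AA/+ range. Ifitm1, in the same cluster, had 77.8 ± 14.0 and 81.1 ± 22.8 (log2 fold change 0.03). Bst2 encodes tetherin, which holds budding virions at the cell surface; it was 214 in the unnumbered library and 96.0 to 112 in all 6 others, WT replicate 1 included. Rsad2 encodes viperin, an enzyme that makes a chain-terminating nucleotide, and had 32.1 to 95.9 in WT and 49.7 to 102 in hDISC1AA/+ (log2 fold change 0.30).

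The dynamin-like GTPases comprise the MX proteins, which trap viral nucleocapsids, and the guanylate-binding proteins, which act on vacuoles of pathogens. C57BL/6 mice carry defective alleles of Mx1 and Mx2, so their transcripts report induction and not a working protein. Mx1 (chromosome 16, 97447035 to 97462907, minus strand) had 11.6, 17.5 and 16.3 normalized counts in WT, then 19.0, 45.7, 24.9 and 29.8 in hDISC1AA/+ replicate 1, the unnumbered library and replicates 3 and 4. All hDISC1AA/+ values lay above all WT values, on 15 to 44 reads per library. Mx1 thus had a log2 fold change of 0.89 (limma 95% CI 0.08 to 1.69, adjusted p = 0.974; exact permutation p = 0.0571), and 0.49 without WT replicate 1 and the unnumbered library.

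Gbp2 had 50.7, 107 and 113 in WT and 119.5, 153, 123 and 97.7 in the same order of hDISC1AA/+ libraries (log2 fold change 0.51, SE 0.30), and the log2 fold change was 0.14 without WT replicate 1 and 0.04 without the unnumbered library too. WT replicate 1 was the lowest, and WT replicates 2 and 3 lay within the hDISC1AA/+ range. Gbp3 had 119, 180.1 and 162 and then 153, 234, 179.8 and 151 (log2 fold change 0.22). Mx2 had 17.3 to 44.7 in WT and 24.3 to 71.6 in hDISC1AA/+ (log2 fold change 0.44). All 4 genes had their lowest value in WT replicate 1 and their highest in the unnumbered library.

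ISG15 is a ubiquitin-like protein that is attached to other proteins through the E2 enzyme UBE2L6 and removed by USP18, which also blocks the interferon receptor. Isg15 (ENSMUSG00000035692, chromosome 4, 156199424 to 156200818, minus strand) had 39.8, 93.8 and 95.9 normalized counts in WT, and 80.4, 83.4 and 78.2 in hDISC1AA/+ replicates 1, 3 and 4. The unnumbered library had 156. WT replicates 2 and 3 were above 3 of the 4 hDISC1AA/+ libraries, so the higher hDISC1AA/+ mean (99.4 ± 37.6, SD, n = 4, against 76.5 ± 31.8, n = 3) rested on the extremes. For Isg15 the log2 fold change came to 0.41 (limma SE 0.37, adjusted p = 0.974) and -0.23 without WT replicate 1 and the unnumbered library.

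Usp18 had the same extremes, at 21.2 in WT replicate 1 and 85.1 in the unnumbered library, with 30.7 to 61.0 in the other 5; its log2 fold change of 0.35 was -0.03 without WT replicate 1. Ube2l6 had 205, 242 and 352 in WT and 417, 359, 278 and 347 in hDISC1AA/+ replicate 1, the unnumbered library and replicates 3 and 4 (log2 fold change 0.42, 95% CI -0.06 to 0.89), with its highest value in replicate 1. Trim25, a ubiquitin ligase that activates RIG-I, had its highest value in WT replicate 3 (log2 fold change 0.14).

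PARP9 and DTX3L form a complex that modifies histones, and their genes lie head to head on chromosome 16 with Parp14 nearby. Parp9 had 93.7, 131 and 138 normalized counts in WT, then 125, 187, 145 and 150.2 in hDISC1AA/+ replicate 1, the unnumbered library and replicates 3 and 4 (log2 fold change 0.33, 95% CI -0.15 to 0.81). Dtx3l had 160.5, 248 and 205 and then 185, 243, 250.2 and 294 (log2 fold change 0.25). The pair overlaps on opposite strands, so reads of the shared end cannot be told apart. Parp14, an ADP-ribosyltransferase, had 179 ± 60.9 and 195 ± 22.3 (log2 fold change 0.18).

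Among the TRIM proteins Trim34a had the largest fold change of the set. Trim34a (ENSMUSG00000056144, chromosome 7, 104244457 to 104262234, plus strand) had 19.3, 27.3 and 36.0 normalized counts in WT, then 53.9, 63.3, 61.7 and 44.2 in hDISC1AA/+ replicate 1, the unnumbered library and replicates 3 and 4, on 25 to 61 reads per library. The groups did not overlap, and the unnumbered library was level with replicate 3. The difference on the log2 scale was 1.02 (limma 95% CI 0.39 to 1.66, adjusted p = 0.974; exact permutation p = 0.0286), 0.80 without WT replicate 1, and 0.74 without that library and the unnumbered one. Trim34a has a close paralog and an antisense gene; its neighbour Trim34b had 0 to 7.06 normalized counts.

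Trim30a encodes a regulator of NF-kappaB and inflammasome signalling. It had 64.8, 110.2 and 126 in WT and 74.0, 170.2, 128 and 95.7 in the same order of hDISC1AA/+ libraries (log2 fold change 0.20, 95% CI -0.55 to 0.95). Its value was -0.28 without WT replicate 1 and the unnumbered library, so the 2 genes differed in what the extremes contributed.

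The 7 other members had 5 higher and 2 lower means in hDISC1AA/+. Ifi35, which encodes a leucine zipper protein, had 21.8, 44.7 and 30.5 normalized counts in WT, then 40.2, 48.8, 39.0 and 41.1 in hDISC1AA/+ replicate 1, the unnumbered library and replicates 3 and 4 (log2 fold change 0.43, 95% CI -0.22 to 1.08). Samd9l, which encodes a growth-restraining antiviral protein, had 335, 294 and 419.6 in WT and 316, 337 and 302 in the unnumbered library and replicates 3 and 4. hDISC1AA/+ replicate 1 had 135, and the log2 fold change of Samd9l was -0.43 with all libraries (95% CI -1.14 to 0.28) and -0.12 without that replicate.

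Samd9l, Eif2ak2 and Ifit2 were the 3 members whose lowest value lay in hDISC1AA/+ replicate 1, at 0.406, 0.525 and 0.551 times the mean of the other 6; 24.8% of all tested genes had their lowest value there. Ifi27 broke the pattern in another way. It had 790.1 in WT replicate 1 and 790.0 in the unnumbered library, the top 2 values, against 475 to 538 in the other 5, so the library that was lowest for most members was the highest for this one (log2 fold change -0.01, 95% CI -0.50 to 0.48). Its reads could be shared with the related Ifi27l2a, which had 12.7 to 87.2 normalized counts.

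Xaf1, an antagonist of apoptosis inhibitors, had 216 in the unnumbered library and 77.0 to 126 in the others (log2 fold change 0.35). Ifi44 had 63.3 there, 7.70 for WT replicate 1 and 19.5 to 33.8 elsewhere (log2 fold change 0.58, 95% CI -0.70 to 1.86). Rtp4, a receptor chaperone whose gene overlaps Masp1 on the opposite strand, had 62.3 to 97.1 in WT and 66.9 to 136 in hDISC1AA/+ (log2 fold change 0.37). Lgals3bp, a secreted glycoprotein, had 535 ± 17.7 and 588 ± 132 (log2 fold change 0.11). For all 4 the unnumbered library had the highest value.

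**Figure D4:**
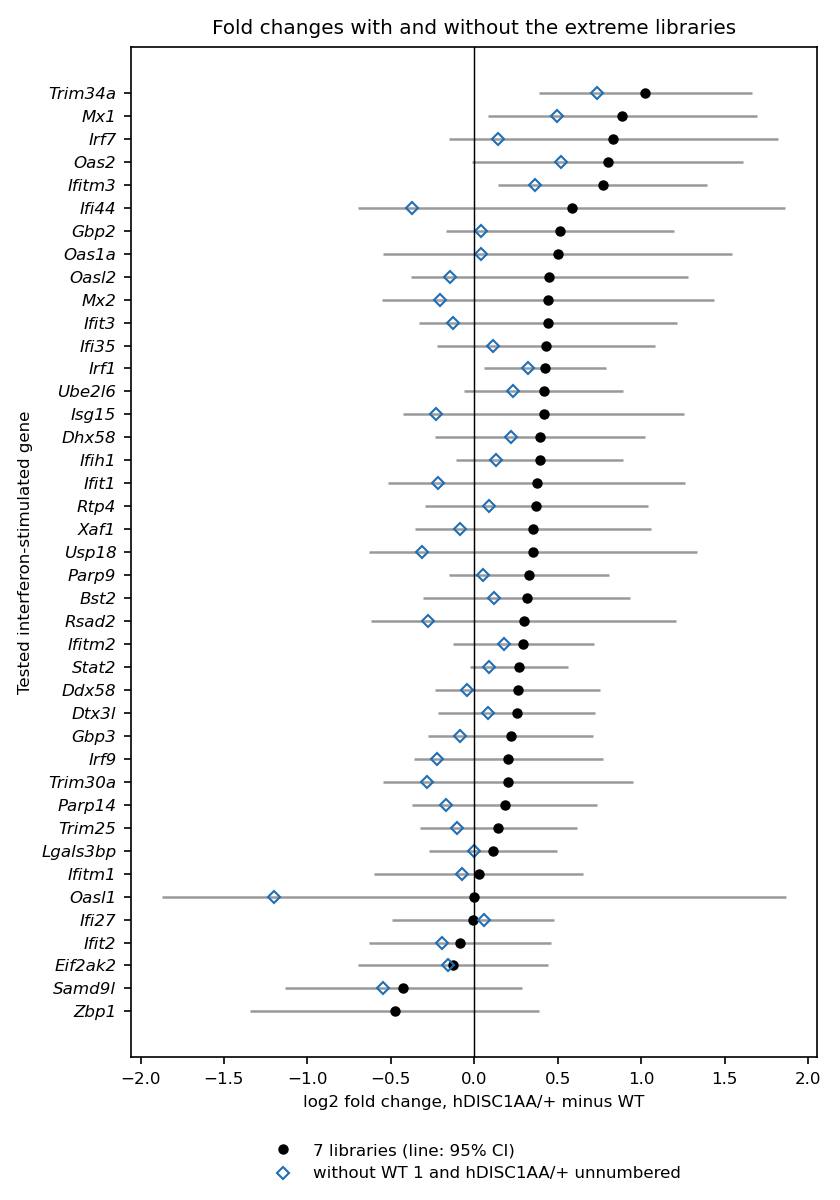
Log2 fold change (horizontal axis, hDISC1AA/+ minus WT, on log2(normalized count + 1)) of the 41 tested members in rank order. Black points with 95% confidence intervals use 7 libraries, and open diamonds leave out WT 1 and the unnumbered hDISC1AA/+ library (Zbp1 then misses the filter). Of the diamonds 19 lie above 0 and 21 below; Trim34a, Oas2, Mx1, Ifitm3 and Irf1 have the 5 highest.

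The genes upstream of the members did not share the pattern. Of 10 interferon genes, 5 had no read in any library and none had more than 2.12 normalized counts in any; Ifnb1 had 2 reads, both in hDISC1AA/+ replicate 1, and Ifng 1 read. For a gene with no read in a library, the 95% upper bound on its expected count there is about 3 reads at this depth, by counting error only. Of 16 tested genes of the receptors, kinases, STATs and their brakes, 8 had a higher and 8 a lower mean in hDISC1AA/+, with a median log2 fold change of 0.00 and 0 past the threshold. Among those with the smallest p were the interferon gamma receptor gene Ifngr2 (-0.21) and the phosphatase gene Ptpn11 (-0.14).

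The receptor genes Ifnar1 (log2 fold change -0.02) and Ifnar2 (0.05) varied little. Of 17 tested genes on a list for the control of interferon induction, 10 had a higher and 7 a lower mean. Traf3 (-0.33), Samhd1 (0.23) and Irf3 (0.18) had the smallest p. None of the 17 passed, and 1, Traf3, had an unadjusted limma p under 0.05 (1.3% of all tested genes were lower at that p).

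A second list of interferon-stimulated genes, none of them among the 42, had the same 2 extreme libraries. Of its 56 tested genes, 42 had a higher and 14 a lower mean in hDISC1AA/+ (median log2 fold change 0.17), against 47.8% of all tested genes higher. None passed, and 3 had an unadjusted limma p under 0.05, all higher (1.14% of all tested genes in that direction). Those with the smallest p were Ifitm6 (0.99), Parp12 (0.44) and Isg20 (1.02), an exonuclease gene. WT replicate 1 was lowest (mean log2 difference -0.50 from the other 6) and the unnumbered library highest (0.39). Without both, 25 of the list were higher (48.2% of all tested genes were) and the median was -0.02.

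Markers of several other cell types moved with WT replicate 1, while 5 of 12 cortical neuron markers lay below the mean of the other 6 there. All 21 endothelial and mural markers lay below the mean of the other 6 in WT replicate 1, with a summed level of 9582 normalized counts against 21887 and 27377 in the other WT libraries and 21500 to 27193 in hDISC1AA/+. The pericyte gene Vtn had 1097 there against 1858 or more elsewhere, and the glucose transporter gene Slc2a1 of the blood-brain barrier 2085 against 2363 or more. Meningeal fibroblast markers, Igf2 and Islr among them, were lower there for 14 of 15 (summed 9722, against 11435 to 17362). All 12 oligodendrocyte markers, the myelin gene Mbp among them, were higher in WT replicate 1 (summed 146150, against 42452 to 54918), as were all 12 astrocyte and all 16 microglial ones. The part of these cell types in the low interferon-stimulated gene level of that library was not tested.

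The unnumbered library was at neither extreme for most of these lists. Its endothelial and mural sum was 22128, its microglial sum 16356 (the lowest of the 7, with 16464 to 24508 in the others) and its peripheral leukocyte sum 325 (280 to 943 in the others). Its cortical neuron sum, 351237, was also the lowest (377856 to 409190 in the others). Red cell markers had a mean log2 difference from the other 6 of 0.51 in this library and -1.40 in WT replicate 1. No marker list was at its highest there. All 41 members were above the mean of the other 6 there. Below it lay 3 of 21 endothelial and mural, 1 of 6 red cell and 9 of 15 meningeal fibroblast markers. So did 13 of 16 microglial, 9 of 12 astrocyte, 10 of 12 oligodendrocyte, 7 of 12 cortical neuron and 5 of 9 leukocyte markers. The part of these cell types in the level of that library was not tested. Peripheral leukocyte markers were highest in hDISC1AA/+ replicate 1 (943, with S100a9 at 259 and Ngp at 208), a library with a member level of -0.11. Of 17 leukocyte markers 9 passed the filter.

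**Figure D5:**
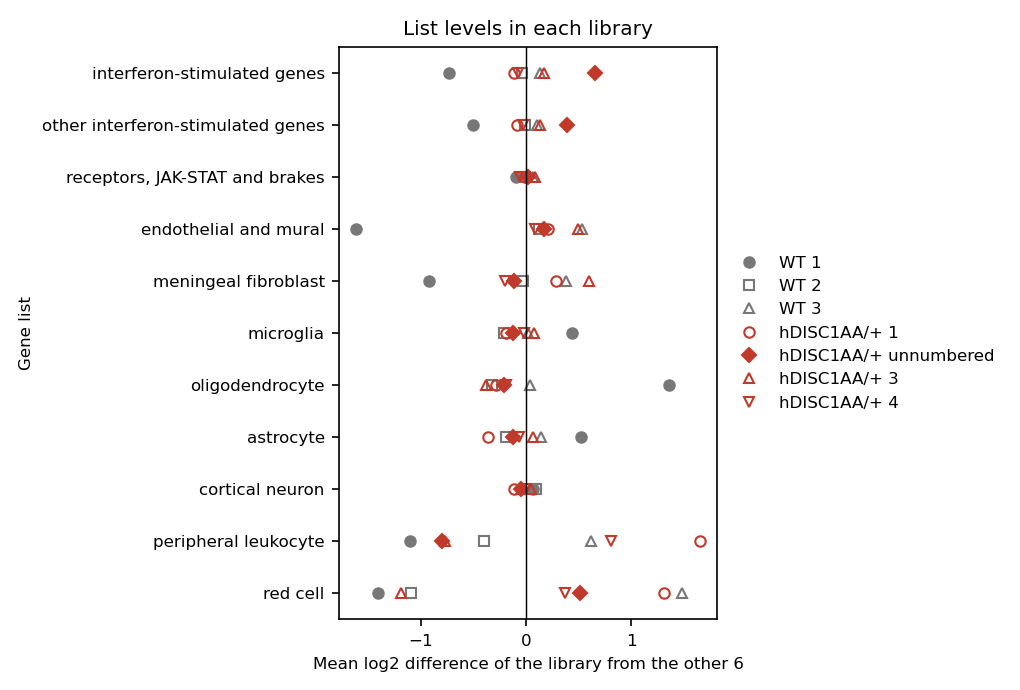
Mean log2 difference of each library from the other 6 (horizontal axis) over the tested genes of each list (rows); grey symbols are WT and red ones hDISC1AA/+, with WT 1 and the unnumbered library filled. In both rows of interferon-stimulated genes the filled circle is leftmost and the filled diamond rightmost; in the endothelial row the circle stands apart at -1.61 and the diamond, at 0.17, lies among the rest.

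The members were also divided by the ISRE core. The 16 tested members with it had a median log2 fold change of 0.34, 15 of them higher, and the 15 without it 0.25, with 12 higher. In the unnumbered library the median log2 difference from the other 6 was 0.77 for those with the core (0.12 to 1.08) and 0.46 for those without (0.07 to 1.66), and the ranges overlapped. Without WT replicate 1 and the unnumbered library the medians of the fold changes were -0.00 and -0.09. That library held the highest value of 14 of the 16 with the core and of 8 of the 15 without it. Whether the 2 sets differ was not tested.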

How the data were processed

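Cortical RNA libraries (NEBNext Ultra kit, not described as strand-specific, per the labels' protocols) were sequenced from 3 WT and 4 hDISC1AA/+ samples. Build mm10, HTSeq 0.6.1, HISAT2 2.1.0, Trimmomatic 0.39 and DESeq2 1.26.0 are listed without role or order, per the submitters' processing notes; neither annotation nor strand setting is given in these sources. The authors deposited a signal per gene: every value was a whole multiple of 1 step per column (100% within 0.01 reads), hence reads divided by 1 size factor, and the whole reads were recovered. A broken line separates identifier from values for 3 genes, which were dropped. Symbols, coordinates and exon lengths come from GENCODE M21 (GRCm38), which matched 42545 of 43626 identifiers.

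Genes with at least 10 in at least 3 libraries were fitted with limma 3.58.1 (R 4.3.3; trend, robust, two-sided) on log2(value + 1), with Benjamini-Hochberg adjustment over all 17670 genes. edgeR 4.0.16 and DESeq2 1.42.0 were run on the recovered reads. The fit was tested on simulated data. Exact permutation tests used the mean difference of the same log2 values. The members and lists were chosen with earlier results of these data known, so the set has no p-value. Values per library are given for the 2 members of each role with the smallest p and the one highest per exon length. Alternatives were other scalings, tests, pseudocounts and filters, and libraries left out. Some genes of the lists are not reported here by name.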

Additional observations from a re-analysis of the deposited data

Results flagged for a closer look

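In 6 of the 41 tested members 1 of the 4 hDISC1AA/+ libraries stood apart from the other 3, by Dixon's comparison of the gap with the whole range; chance gives this in about 1 of 20 groups, and 7.98% of all tested genes met it. For 5 of them it was the unnumbered library, which stood apart above the others in 0.656% of all tested genes: Isg15 (156 normalized counts against 78.2 to 83.4), Ifi44 (63.3 against 19.5 to 22.7), Bst2 (214 against 97.7 to 112), Ifi27 (790.0 against 496 to 538) and Stat2 (1104 against 1004 to 1021). For Samd9l it was replicate 1 (135 against 302 to 337). The 5 genes share that library, so they are not independent cases.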

How the results depend on the processing

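No alternative called a gene past an adjusted p of 0.05. Without WT replicate 1 and the unnumbered hDISC1AA/+ library together, an omission of the set's own extremes that had to lower the difference, 19 of 40 members were higher, with a median log2 fold change of -0.0256 (all tested genes 48.2% and -0.00857), and 1 had an unadjusted p under 0.05. There 17 of 35 members turned negative. Of those named by the rule these were Gbp3 (-0.0866), Ifit1 (-0.218), Ifit3 (-0.128), Isg15 (-0.232), Oasl2 (-0.149) and Trim30a (-0.284), while Ifi27 (0.0605) turned positive. Voom quality weights gave 31 members higher and a median of 0.124, with Eif2ak2 at 0.111, Ifi27 at 0.107 and Ifit1 at -0.113. Without WT replicate 1 and hDISC1AA/+ replicate 1 together Eif2ak2 was 0.145 and Ifi27 0.245, and 7 members did not overlap between the groups in place of 4. With single libraries left out, 1 (without WT replicate 1) to 6 members (without WT replicate 2) were higher at an unadjusted limma p under 0.05. Of all tested genes, 275 of 17528 and 875 of 17510 reached it there in either direction, against 431 of 17670 with all libraries. Without the unnumbered library 2 members were higher at that p, and 218 of 17451 genes reached it. Members without overlap numbered 4 to 9. The share of all tested genes without overlap was not counted with libraries left out, and fewer libraries make overlap rarer. The omissions of single libraries gave Eif2ak2 -0.247 to 0.118, Ifi27 -0.158 to 0.209, Ifit1 -0.0294 to 0.77 and Trim30a -0.0819 to 0.398. The causes were not tested. With 50 in 3 libraries as the filter, 32 members were tested. No paired analysis was possible because the replicate numbers come from the order of the records. With 3 and 4 libraries, the 95% interval lay within 2-fold for 19 of the 41 members.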
